A study of Mus musculus with 6 samples.

Results

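The Notch receptors and a set of genes tied to Notch signalling were read in blood-forming cells of mouse bone marrow. The 8 genes are the receptors Notch1, Notch2, Notch3 and Notch4, the DNA-binding factor Rbpj, and the targets Hes1, Nrarp and Dtx1. They were chosen by name, with earlier results of these data known. Every probe set annotated to 1 of them alone was used, which gave 17 probe sets for 8 of the 18193 genes on the array. A probe set is a group of short probes on an Affymetrix array that report 1 transcript.

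The study sorted LSK cells, the bone marrow cells that carry Sca1 and Kit and lack lineage antigens, into 3 groups by the surface antigens CD34 and Flt3. CD34+Flt3hi cells carry both antigens, CD34+Flt3- cells carry CD34 alone, and CD34-Flt3- cells carry neither. All came from the marrow of adult mice of 10 to 14 weeks, and each group had 2 arrays, 6 in all. Treatment, strain, sex and the number of mice behind an array are not given in the sources used here, so the p-values speak only of array-to-array spread, technical or not. As textbook background, the CD34-Flt3- fraction is the one richest in long-term stem cells, the CD34+Flt3- fraction holds shorter-lived multipotent cells, and the CD34+Flt3hi fraction holds progenitors biased to the lymphoid fate. The design asked which expression changes accompany the functional differences between these fractions.

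Notch receptors are cleaved when a Delta-like or Jagged ligand on a neighbouring cell binds them. The freed intracellular part enters the nucleus and joins the DNA-binding protein RBPJ and a Mastermind coactivator at target genes, where RBPJ without it sits with corepressors. HES1 is a transcriptional repressor made in response, while NRARP and the Deltex protein DTX1 act back on the pathway. In the blood system, Notch1 is known above all for directing early progenitors in the thymus to the T lineage, and Notch2 for marginal zone B cells.

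RBPJ binds the core letters TGGGAA, so the start regions of the genes were searched for it on both strands, as was the longer GTGGGAA, which contains the core. RefSeq places Notch1 on chromosome 2 from 26457902 to 26503822, Rbpj on chromosome 5 from 53555779 to 53657445 and Hes1 on chromosome 16 from 30065357 to 30067796 in build GRCm38.p6. RefSeq windows from 250 bases before to 50 bases after the start site (build GRCm38.p6) covered 7 of the 8 genes with 8 windows, Rbpj having 2 and Hes1 none in the table used. The core stood in 2 of the 8 windows, both of Rbpj, and GTGGGAA in 0. Over all 32851 windows of the same 300 bases, 25.6% held the core and 6.38% the longer form. A match is a run of letters and not a measured site, and its absence says only that these letters are not in the window. The window of Notch1, the member whose level differed between the groups, and the first window of Rbpj, which has the core at bases 102 to 107 on its own strand and at bases 186 to 191 on the other, are shown with the core in capitals where it occurs.
Notch1 (chr2:26503773-26504072, minus strand): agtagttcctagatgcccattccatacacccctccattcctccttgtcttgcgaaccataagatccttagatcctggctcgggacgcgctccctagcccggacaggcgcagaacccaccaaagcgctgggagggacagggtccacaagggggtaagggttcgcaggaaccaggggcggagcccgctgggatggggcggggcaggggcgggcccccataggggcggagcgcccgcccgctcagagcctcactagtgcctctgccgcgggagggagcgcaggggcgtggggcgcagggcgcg
Rbpj (chr5:53590096-53590395, plus strand): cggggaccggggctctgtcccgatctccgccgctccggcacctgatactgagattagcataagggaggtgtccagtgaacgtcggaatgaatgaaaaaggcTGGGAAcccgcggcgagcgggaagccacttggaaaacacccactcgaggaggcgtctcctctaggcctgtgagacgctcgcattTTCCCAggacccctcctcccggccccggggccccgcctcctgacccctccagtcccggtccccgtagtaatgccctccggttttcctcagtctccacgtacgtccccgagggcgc
The second Rbpj window overlaps the first, and its single match is the one at bases 186 to 191 here. Both windows lie inside the RefSeq span of Rbpj, past its first base at 53555779, and that end of the gene was not searched.

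Levels are the log2 of the deposited intensities, differences between groups are log2 differences of group means, and each is from limma with Benjamini-Hochberg adjustment over all 45037 probe sets tested, called at an adjusted p under 0.05. Background was a log2 of 4.50, set by control probe sets. Of the 17 probe sets, 11 were above it on all 6 arrays, 4 on some and 2 on none, and 6 genes had a probe set above it throughout. Notch3 and Notch4 did not. Among the transcripts of the sort antigens, Cd34 was higher in both CD34+ groups than in CD34-Flt3- cells. Flt3 was higher in CD34+Flt3hi cells than in both Flt3- groups, which overlapped. Both are orders the labels give. Cd34 had 11.35 and 11.34 in CD34+Flt3hi, 10.51 and 10.68 in CD34+Flt3-, and 8.78 and 9.45 in CD34-Flt3- cells. Flt3 had 12.01 and 11.75 in CD34+Flt3hi, 8.84 and 9.81 in CD34+Flt3-, and 7.65 and 9.16 in CD34-Flt3- cells, although its difference between CD34+Flt3hi and CD34+Flt3- cells just missed the threshold (2.56 ± 0.45 SE, limma adjusted p = 0.0555). Kit was above background on all arrays and passed in no comparison, and Ly6a, which encodes Sca1, is not analysed here. A code in the array titles, whose meaning is not given, takes 3 values, called A, B and C here. Replicate 2 of every group carries code A, replicate 1 of CD34+Flt3hi and of CD34+Flt3- cells code B, and replicate 1 of CD34-Flt3- cells code C. Replicate arrays correlated at 0.964 to 0.987 over all probe sets.

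**Figure D1:**
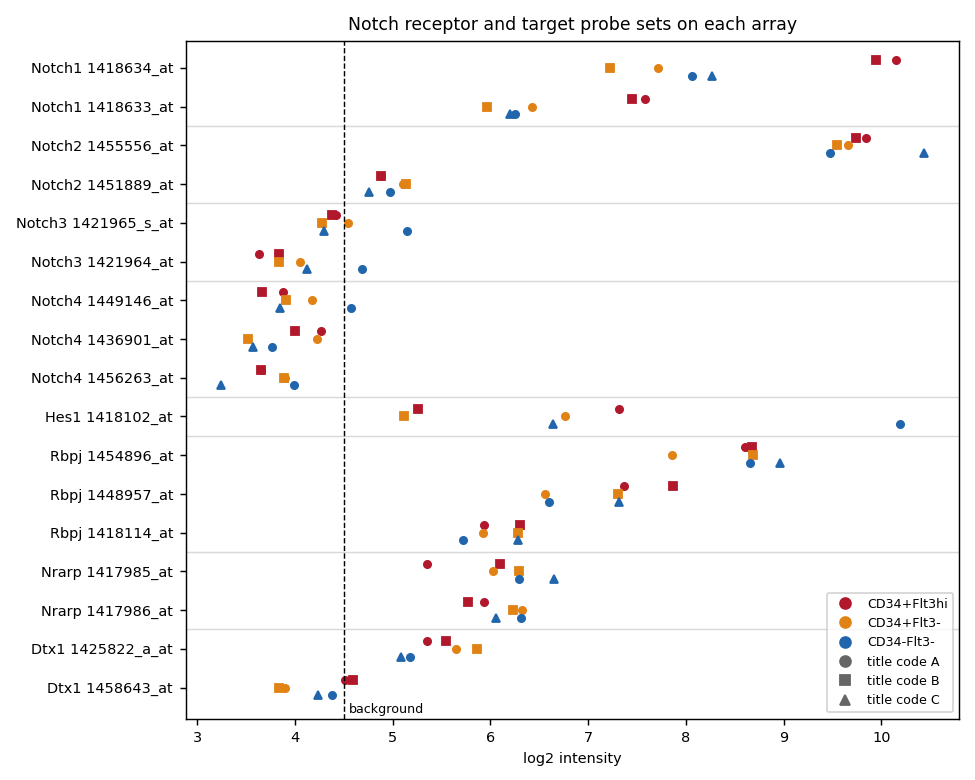
Log2 intensity (horizontal axis) of the 17 probe sets of the Notch receptors, Rbpj and targets on each of the 6 arrays; colour gives the sorted group, marker shape the title code, and the dashed line the background at 4.50. Both Notch1 probe sets have the CD34+Flt3hi arrays to the right of all others, and Hes1 has the code A array highest in each group.

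In the fit of the group means Notch1 was the only one of the 8 genes with a called difference, and it was highest in CD34+Flt3hi cells. Its brighter probe set, 1418634_at, read 9.95 and 10.15 in CD34+Flt3hi cells, 7.22 and 7.71 in CD34+Flt3- cells, and 8.27 and 8.06 in CD34-Flt3- cells. The 3 groups had separate ranges, with CD34+Flt3- cells lowest. It was 6.02-fold higher in CD34+Flt3hi cells than in CD34+Flt3- cells (log2 difference 2.59 ± 0.27 SE, limma adjusted p = 0.00323), the 25th smallest p of all probe sets in that comparison. Against CD34-Flt3- cells it was 3.69-fold higher (1.88 ± 0.27 SE, limma adjusted p = 0.00474). As RNA of sorted populations, such a difference cannot tell more cells with the transcript from more transcript per cell.

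Within the arrays of code A alone, this probe set of Notch1 was higher in CD34+Flt3hi by 2.44 over CD34+Flt3- and by 2.09 over CD34-Flt3- cells, and within those of code B by 2.73 over CD34+Flt3- cells. These rest on 1 array a group and carry no test. The step between the Flt3- groups ran the other way, CD34+Flt3- minus CD34-Flt3- cells being -0.70 on the log2 scale (95% interval -1.30 to -0.11), and missed the threshold (limma adjusted p = 0.276). Within code A alone this step was -0.35, again with no test. The rise at the Flt3 step minus the change at the CD34 step came to 3.29 ± 0.46 SE, which also missed the threshold (limma adjusted p = 0.0848). The call depends on the setting. The difference passed when the title code entered the fit as a block (3.02, limma adjusted p = 0.00155) and with a block that sets code A apart from the remaining codes (3.29, limma adjusted p = 0.0121). It also passed without replicate 1 or without replicate 2 of CD34-Flt3- cells (3.19 and 3.40, limma adjusted p = 0.0219 and 0.0191), and not without any 1 array of the CD34+ groups. Over the alternatives run it lay between 2.81 and 3.78, with limma adjusted p from 0.00155 to 0.772.

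The other Notch1 probe set, 1418633_at, was also highest in CD34+Flt3hi cells, by less. It read 7.45 and 7.58 in CD34+Flt3hi, 5.96 and 6.42 in CD34+Flt3-, and 6.20 and 6.25 in CD34-Flt3- cells, with the 2 Flt3- groups overlapping. It was 2.45-fold higher in CD34+Flt3hi cells than in CD34-Flt3- cells (1.29 ± 0.29 SE, limma adjusted p = 0.039). Against CD34+Flt3- cells the difference of 1.33 ± 0.29 SE (95% interval 0.69 to 1.97) missed the threshold (limma adjusted p = 0.158). The Pearson r between the 2 Notch1 probe sets over the 6 arrays was 0.97, a description of arrays that share their RNA.

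These calls rest on few arrays. When either CD34+Flt3hi array or CD34+Flt3- replicate 1 was left out, the Flt3 step of probe set 1418634_at kept a log2 difference of 2.35 to 2.69 but had limma adjusted p-values of 0.0603 to 0.108. Its difference from CD34-Flt3- cells had limma adjusted p = 0.0725 without CD34+Flt3hi replicate 1 and 0.111 without replicate 2. Over all alternatives the limma adjusted p of this probe set ran from 1.22e-06 to 0.108 and from 0.000114 to 0.111 in these comparisons. The call of probe set 1418633_at against CD34-Flt3- cells was lost without any 1 of the 4 arrays of CD34+Flt3hi and CD34+Flt3- cells (limma adjusted p = 0.0548 to 0.35) and in a fit to the 4 arrays compared (0.0552), among values from 0.0163 to 0.35.

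**Figure D2:**
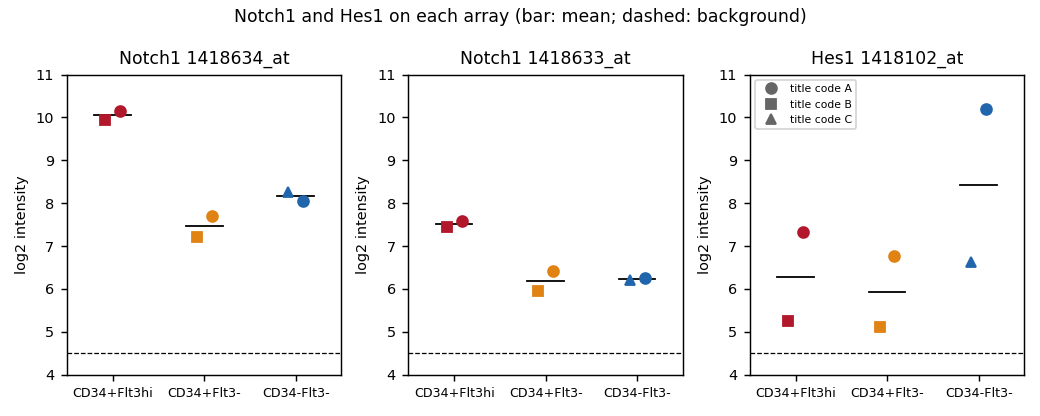
Log2 intensity (vertical axis) of both Notch1 probe sets and of Hes1 on each array, by sorted group from CD34+Flt3hi to CD34-Flt3-; bars are group means, marker shapes title codes, the dashed line background. Notch1 sets CD34+Flt3hi cells above both other groups, while the Hes1 replicates differ by 2.06 in CD34+Flt3hi, 1.65 in CD34+Flt3- and 3.55 in CD34-Flt3- cells.

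The genes Msrb3, Dpcd and Tigar had the pattern over the 6 arrays most like that of Notch1 among 12563 genes with a probe set above background on average. Msrb3, a methionine sulfoxide reductase, had a Pearson r of 0.991 with probe set 1418634_at, and read 7.0 and 7.30 in CD34+Flt3hi, 3.95 and 5.01 in CD34+Flt3-, and 5.27 and 5.10 in CD34-Flt3- cells. Dpcd followed at 0.988, and Tigar, a phosphatase that acts on a regulator of glycolysis, at 0.987. These are descriptions over 6 arrays in 3 groups and carry no p.

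No difference of Notch2 between the groups passed the threshold. Its brighter probe set, 1455556_at, read 9.74 and 9.84 in CD34+Flt3hi cells, 9.55 and 9.66 in CD34+Flt3- cells, and 10.44 and 9.48 in CD34-Flt3- cells. The CD34-Flt3- arrays spanned all the others, code C above them and code A below. CD34+Flt3hi cells differed by 0.18 (95% interval -0.47 to 0.83) from CD34+Flt3- and by -0.16 (-0.82 to 0.49) from CD34-Flt3- cells, so a change of the size of that of Notch1 lies outside both intervals. The dimmer probe set 1451889_at lay between 4.76 and 5.13 on all arrays, and correlated with the other at -0.79.

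Notch3 and Notch4, known from vascular cells as well as from blood, were at or near background. Notch3 probe set 1421965_s_at read 4.38 and 4.42 in CD34+Flt3hi, 4.28 and 4.54 in CD34+Flt3-, and 4.30 and 5.15 in CD34-Flt3- cells, above background on 2 arrays. Its other probe set, 1421964_at, read 3.83 and 3.63 in CD34+Flt3hi, 3.84 and 4.05 in CD34+Flt3-, and 4.12 and 4.68 in CD34-Flt3- cells, above background on 1 array. The code A array of CD34-Flt3- cells was the highest for both. Of the 3 Notch4 probe sets, 1449146_at was above background on the same array alone, at 4.57, and the other 2 on none. Levels so close to background have no firm order, and no difference of these 5 probe sets passed the threshold.

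Rbpj, the factor through which all 4 receptors act on DNA, was above background with all 3 of its probe sets and none passed the threshold in any comparison. Probe set 1454896_at read 8.68 and 8.61 in CD34+Flt3hi cells, 8.69 and 7.86 in CD34+Flt3- cells, and 8.96 and 8.66 in CD34-Flt3- cells. Probe set 1448957_at read 7.87 and 7.37 in CD34+Flt3hi, 7.31 and 6.56 in CD34+Flt3-, and 7.32 and 6.60 in CD34-Flt3- cells, with the CD34+Flt3hi arrays above the rest. Its difference from CD34+Flt3- cells was 0.68 (95% interval -0.13 to 1.5). Probe set 1418114_at lay between 5.72 and 6.30 with the groups overlapping. On all 3 probe sets the code A array was the lower one of each group, by 0.08 to 0.83, and the code A difference passed the threshold for none (limma adjusted p = 0.397 to 0.627).

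Hes1, the repressor most often read as a Notch target, varied more with the title code than any other member. As only 1 probe set, 1418102_at, measured it, its values have no second reading, and they were 5.26 and 7.32 in CD34+Flt3hi cells, 5.11 and 6.76 in CD34+Flt3- cells, and 6.64 and 10.19 in CD34-Flt3- cells. The second value of each pair is the code A array, and it was above the other one 4.18-fold in CD34+Flt3hi, 3.14-fold in CD34+Flt3- and 11.7-fold in CD34-Flt3- cells. In a fit with a term for code A, added after these values were seen, Hes1 was higher on the code A arrays by 2.42 ± 0.32 SE (5.36-fold, limma adjusted p = 0.0167), higher in 3 of 3 groups. That term was called for 19 of all probe sets, or 0.0422%, and 18 probe sets (0.04%) had the code A array over 2-fold above the other in each group. Leaving out any 1 array gave 1.86 to 2.81 for this term. As the term was drawn from the Hes1 values, neither its p-value nor these refits are a separate test of it.

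Between the sorted groups, Hes1 was highest in CD34-Flt3- cells on code A arrays and on the others alike, but did not pass the threshold in the fit without a term for the code. Against CD34-Flt3- cells, the difference of CD34+Flt3- cells was -2.48 ± 1.02 SE (limma adjusted p = 0.314) and that of CD34+Flt3hi cells -2.12 ± 1.02 SE (limma adjusted p = 0.364). Within code A the differences were -3.43 and -2.87. With code A as a term the same differences of -2.48 and -2.12 passed, with limma adjusted p = 0.00525 and 0.00563. As that term was added after the Hes1 values were seen, these 2 p-values cannot serve as a separate test of the groups. Without CD34-Flt3- replicate 1 the differences were -4.26 and -3.90. Over all alternatives the limma adjusted p ran from 1.57e-05 to 0.666 for the first difference and from 2e-05 to 0.892 for the second. The array of CD34-Flt3- cells that is not code A carries a code of its own, so that code and that array cannot be told apart. CD34+Flt3hi and CD34+Flt3- cells differed in Hes1 by 0.36 (95% interval -1.90 to 2.61), an interval wide enough to hold the 2.59 measured for Notch1.

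The 10 immediate early genes listed after seeing these values, which switch on quickly when cells are stimulated, had 0 members called for the code A term in limma and 4 at an unadjusted p under 0.05 (9.19% of all probe sets). The code A term of those 4 had both signs, 1.12 for Nr4a1, 1.06 for Atf3, -0.19 for Fos and -0.34 for Jun (limma adjusted p = 0.344, 0.433, 0.525 and 0.506). Nr4a1, a nuclear receptor, read 9.29 and 10.70 in CD34+Flt3hi, 10.21 and 9.92 in CD34+Flt3-, and 9.58 and 11.83 in CD34-Flt3- cells. Atf3, a stress-induced transcription factor, read 7.34 and 7.52 in CD34+Flt3hi, 6.91 and 7.21 in CD34+Flt3-, and 5.40 and 8.10 in CD34-Flt3- cells. Both were highest, like Hes1, on the code A array of CD34-Flt3- cells, as were Fosb at 10.86 and Junb at 9.90. The mean of the 10 genes was 11.53 on that array and 10.64 to 11.12 on the others, while their median code A term was -0.01. Unlike Hes1, Nr4a1 was lower on the code A array of CD34+Flt3- cells. Of the 19 probe sets called for code A, 10 were higher and 9 lower on those arrays, and 12 had 1 gene symbol. The smallest p was that of a probe set with no symbol, at -4.11, and among the named ones Pisd-ps3 (-2.90), Lrmda (-2.85), Btg2 (-2.57) and H3f3b (-1.79) were lower. Among those higher, named like the others after their values were seen, were Ctse, an aspartic protease, and Cxcr4, the receptor that holds stem cells in the marrow. Ctse read 8.23 and 12.19 in CD34+Flt3hi, 8.59 and 11.86 in CD34+Flt3-, and 9.26 and 11.76 in CD34-Flt3- cells, the code A array again second. Cxcr4 read 6.78 and 8.31 in CD34+Flt3hi, 5.79 and 8.29 in CD34+Flt3-, and 5.20 and 8.76 in CD34-Flt3- cells. The part of the title code in the Hes1 differences was not tested further. The genes most like Hes1 over the 6 arrays, also chosen after its values were seen, were Gadd45b, Hcls1 and Mfge8, with Pearson r of 0.985, 0.985 and 0.984.

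Nrarp, a small ankyrin repeat protein that limits Notch signalling and is itself a Notch target, was lowest on average in CD34+Flt3hi cells, where Notch1 was highest, and passed no test. Probe set 1417985_at read 6.10 and 5.35 in CD34+Flt3hi cells, 6.29 and 6.03 in CD34+Flt3- cells, and 6.65 and 6.29 in CD34-Flt3- cells. The CD34+Flt3hi arrays lay below both CD34-Flt3- arrays, with a difference of -0.75 (95% interval -1.49 to -0.02) that missed the threshold (limma adjusted p = 0.317). Probe set 1417986_at read 5.77 and 5.93 in CD34+Flt3hi, 6.23 and 6.32 in CD34+Flt3-, and 6.06 and 6.31 in CD34-Flt3- cells, again with CD34+Flt3hi cells lowest and no call. Neither interval of CD34+Flt3hi minus CD34+Flt3- cells, -1.17 to 0.30 and -1.04 to 0.19, reaches the rise measured for Notch1.

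Dtx1, an E3 ubiquitin ligase that binds the Notch intracellular part, gave 2 probe sets with unlike group orders. The dimmer, 1458643_at, lay close to background, where levels have no firm order. Probe set 1425822_a_at read 5.54 and 5.35 in CD34+Flt3hi, 5.86 and 5.65 in CD34+Flt3-, and 5.08 and 5.18 in CD34-Flt3- cells, highest in CD34+Flt3- cells. Probe set 1458643_at read 4.59 and 4.51 in CD34+Flt3hi, 3.84 and 3.90 in CD34+Flt3-, and 4.23 and 4.38 in CD34-Flt3- cells, lowest in CD34+Flt3- cells and above background in CD34+Flt3hi cells alone. The r between them was -0.56. The second was higher by 0.68 ± 0.21 SE in CD34+Flt3hi cells than in CD34+Flt3- cells, and the first by 0.63 in CD34+Flt3- than in CD34-Flt3- cells, and neither passed (limma adjusted p = 0.523 and 0.337).

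**Figure D3:**
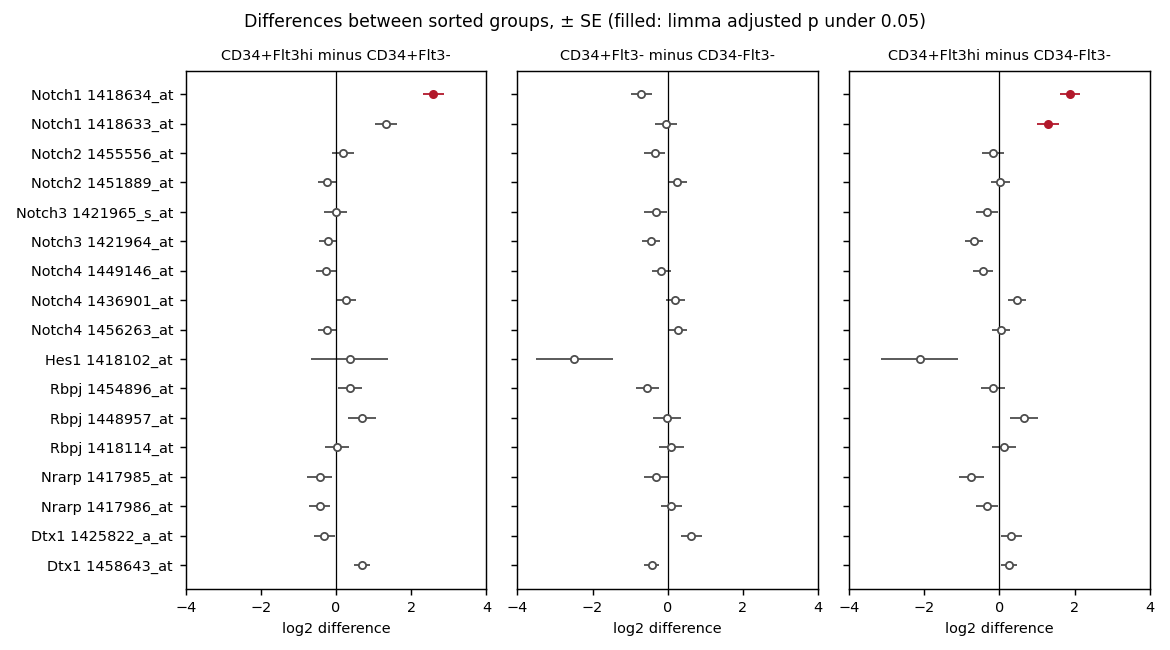
Log2 differences ± SE (horizontal axes) of the 17 probe sets for the 3 pairs of groups named above the panels, from the fit to 6 arrays; filled points passed a limma adjusted p under 0.05. The filled points are the 3 calls of Notch1, and Hes1 has the widest error, 1.02.

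Counted together, 1 of the 17 probe sets was higher and 0 were lower in CD34+Flt3hi cells than in CD34+Flt3- cells, where 0.187% of all probe sets were called higher. In CD34+Flt3- against CD34-Flt3- cells 0 of 17 passed in limma, against 0.89% of all, and 3 had an unadjusted p under 0.05, as had 14.0% of all probe sets. Between CD34+Flt3hi and CD34-Flt3- cells 2 were higher, both of Notch1, against 1.67% of all. For the difference between the steps 0 passed in limma, against 0.0289% of all, with 3 at an unadjusted p under 0.05, beside 7.54% of all. Group ranges were apart for 11, 5 and 9 of the 17 in the 3 comparisons of groups, in the order given, where 38.2%, 41.6% and 44.4% of all probe sets did not overlap. The median difference of the 17 was 0.02, -0.17 and 0.02, beside 0.02, -0.05 and -0.03 over all probe sets. Outside Notch1, the 15 other probe sets lay between -0.44 and 0.68 at the Flt3 step. No probe set of Hes1, Nrarp or Dtx1 was called between any pair of groups in this fit. As the members were chosen with earlier results of these data known, these counts are descriptions.

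Of 71 other genes of the pathway, also listed with earlier results of these data known, 65 were measured. They were taken at the probe set of highest mean, and 57 were above background on all arrays. None passed the threshold between CD34+Flt3hi and CD34+Flt3- cells or between CD34+Flt3- and CD34-Flt3- cells in limma, with 6 and 16 at an unadjusted p under 0.05. Over the probe sets of highest mean of all genes that share was 6.54% and 16.6%. In CD34+Flt3hi against CD34-Flt3- cells 0 were higher and 6 lower, where 1.84% of all probe sets and 2.93% of the probe sets of highest mean of each gene were lower. In that comparison 13 of the 65 had an unadjusted limma p under 0.05, beside 17.9% of the probe sets of highest mean. The median difference of the 65 genes was 0.04, -0.23 and -0.10 in the 3 comparisons. When either 1 of the CD34+Flt3hi arrays was left out none of the 6 passed.

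Of these 6, 4 belong to the 9 measured genes of the list of T lineage and growth targets. Gata3, a transcription factor of early T cells and stem cells, read 5.17 and 5.0 in CD34+Flt3hi, 5.95 and 5.17 in CD34+Flt3-, and 7.31 and 7.04 in CD34-Flt3- cells, and was 4.24-fold lower in CD34+Flt3hi cells than in CD34-Flt3- cells (-2.08 ± 0.33 SE, limma adjusted p = 0.00743). Bcl11b, which fixes T cell identity, was below background on both CD34+Flt3hi arrays at 4.12 and 4.11, against 6.01 and 4.39 in CD34+Flt3-, and 6.10 and 6.59 in CD34-Flt3- cells, at least 3.59-fold lower than in CD34-Flt3- cells when the dim arrays are set to background (limma adjusted p = 0.0259). Ccnd3, a D cyclin of lymphoid cells, differed by -1.24 ± 0.25 SE (limma adjusted p = 0.0243), and Igf1r, the receptor for insulin-like growth factor, by -1.08 ± 0.23 SE (limma adjusted p = 0.0344). All 4 were lower in the fraction in which Notch1 was highest. They were also lower in CD34+Flt3- cells, where Notch1 probe set 1418634_at was lowest, though none passed there. Those differences from CD34-Flt3- cells were -1.61 for Gata3, -1.14 for Bcl11b, -0.58 for Ccnd3 and -0.57 for Igf1r. The step of Notch1 between the Flt3- groups missed the threshold as well. It was -0.70 for probe set 1418634_at (limma adjusted p = 0.276) and -0.04 for probe set 1418633_at (limma adjusted p = 0.974). The order of Notch1 over these groups is therefore not settled, and whether the 4 genes run against it was not tested. The other 5 genes of the list did not pass between CD34+Flt3hi and CD34-Flt3- cells, and their differences had both signs. Ptcra, part of the early T cell receptor, differed by 0.58 ± 0.25 SE (limma adjusted p = 0.301), Cdkn1a by 0.38, Myc by 0.29, Il2ra by 0.12 and Ccnd1 by -0.20. Il2ra was below background on all arrays, and Ptcra was above it on 3.

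The remaining 2 were Tle2 and Psen2. Tle2, a Groucho corepressor, was the 1 of 10 measured corepressors that passed, with 5.97 and 5.52 in CD34+Flt3hi, 7.06 and 7.01 in CD34+Flt3-, and 7.43 and 8.09 in CD34-Flt3- cells (-2.01 ± 0.32 SE between CD34+Flt3hi and CD34-Flt3-, limma adjusted p = 0.00783). Of its relatives, Tle1 differed by -0.76 ± 0.30 SE without passing (limma adjusted p = 0.247), and Tle3 and Tle4 differed by 0.05 and 0.07. Psen2, a catalytic subunit of the gamma-secretase that frees the receptor's intracellular part, read 7.36 and 7.20 in CD34+Flt3hi, 7.80 and 7.66 in CD34+Flt3-, and 8.52 and 8.80 in CD34-Flt3- cells (-1.38 ± 0.26 SE between CD34+Flt3hi and CD34-Flt3-, limma adjusted p = 0.0196). Aph1b, another subunit, differed by -1.21 ± 0.32 SE and missed the threshold (limma adjusted p = 0.080).

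In the other groups of the pathway no gene passed in any comparison. Among 6 ligands, Jag2 read 6.57 and 6.87 in CD34+Flt3hi, 6.39 and 6.24 in CD34+Flt3-, and 6.71 and 7.57 in CD34-Flt3- cells, and Dll4 read 5.57 and 5.56 in CD34+Flt3hi, 5.40 and 5.31 in CD34+Flt3-, and 5.26 and 5.41 in CD34-Flt3- cells. Among 5 enzymes that place sugars on the receptors, Mfng, a Fringe, read 9.40 and 9.69 in CD34+Flt3hi, 9.25 and 9.39 in CD34+Flt3-, and 9.81 and 10.09 in CD34-Flt3- cells. CD34+Flt3- cells were lowest for Mfng, without passing. Of 9 genes of receptor turnover, Dtx3l was highest in CD34+Flt3hi cells on average, with 8.97 and 8.63, against 7.98 and 7.47 in CD34+Flt3- and 8.75 and 8.11 in CD34-Flt3- cells (1.08 ± 0.31 SE over CD34+Flt3- cells, limma adjusted p = 0.422). Among the 8 other Hes and Hey genes, Hes5 lay between 6.24 and 6.42 on all arrays, and Hey1 had, like Hes1, its highest value, 6.89, on the code A array of CD34-Flt3- cells. The 4 genes that handle ligands for uptake and the 6 measured coactivators had medians between -0.26 and 0.38 in the 3 comparisons.

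**Figure D4:**
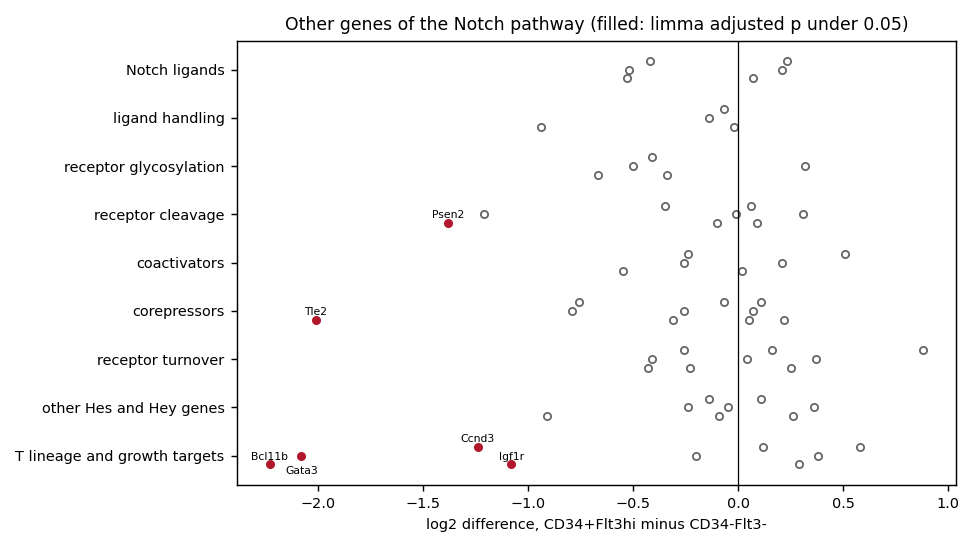
Log2 differences of the 65 other pathway genes for CD34+Flt3hi minus CD34-Flt3- cells (horizontal axis), by gene group; filled and named points passed a limma adjusted p under 0.05. The 6 named genes all lie left of 0, between -2.23 and -1.08.

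Markers of cells outside the LSK gate, or of single lineages, were read beside these results. Of 10 measured T and NK markers 0 passed in any of the 3 comparisons in limma (1, 2 and 4 at an unadjusted p under 0.05), their summed linear intensity was 704 to 713 in CD34+Flt3hi, 890 to 997 in CD34+Flt3- and 712 to 1076 in CD34-Flt3- cells, and 6 of them were above background on all arrays, among them Cd3e at 5.90 to 6.71, and Cd3g on none. Of 9 B markers 0 passed in limma (1, 0 and 1 at an unadjusted p under 0.05), and 4 of them were above background on all arrays and Ms4a1 on none. Over the probe sets of highest mean of all genes, 6.54%, 16.6% and 17.9% had such an unadjusted p in the 3 comparisons. Of 7 megakaryocyte markers 2 were lower in CD34+Flt3hi cells than in CD34+Flt3- cells, where 0.109% of all probe sets were called lower. Against CD34-Flt3- cells 3 of 7 were lower, beside 1.84% of all probe sets. Their sum was 239 to 294 in CD34+Flt3hi, 992 to 2213 in CD34+Flt3- and 3300 to 3463 in CD34-Flt3- cells. Among them Vwf read 8.25 and 5.53 in CD34+Flt3-, and 11.12 and 10.78 in CD34-Flt3- cells. Pf4 and Itga2b overlapped between these groups, Pf4 with 8.0 and 7.13 against 6.90 and 7.87, and Itga2b with 10.35 and 9.19 against 9.38 and 10.17. The order of the sum over the Flt3- groups is thus not that of each marker. Endothelial markers had 1 of 8 lower and 4 of 8 lower in the same comparisons, with sums of 274 to 302 in CD34+Flt3hi, 370 to 387 in CD34+Flt3- and 761 to 829 in CD34-Flt3- cells, and 7 of the 8 were above background on all arrays, Cdh5 on none. The 4 lower than in CD34-Flt3- cells were Tie1 at -2.86, Kdr at -1.79, Robo4 at -1.49 and Sox18 at -1.42 (limma adjusted p = 0.000853, 0.0124, 0.0333 and 0.0251). In CD34+Flt3hi against CD34-Flt3- cells 3 of 8 erythroid markers were lower. There 1.67% of all probe sets were called higher, as were 2 of 9 neutrophil and monocyte markers. Of 7 stromal markers 1 was higher and 1 lower. In CD34+Flt3- against CD34-Flt3- cells 0.506% of all probe sets were called lower and 0.384% higher. Of the markers, 2 erythroid, 1 megakaryocyte and 1 endothelial marker were lower there, and 1 neutrophil and monocyte and 1 stromal marker higher. Their part in the Notch1, Gata3 and Tle2 differences was not tested.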

How the data were processed

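RNA of FACS-sorted LSK cells was purified with a micro kit, amplified over 2 rounds and hybridised as biotin-labelled RNA, per the labels' protocols. The deposited values are intensities processed by the authors with RMA, per the submitters' processing notes. The version and the arrays processed together are not given in the sources used here, and the linear scale is inferred from a range of 6.5 to 24173. Array medians lay between 29.7 and 31.4.

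Here log2 of these intensities was fitted with limma 3.58.1 in R 4.3.3 (group means of all 6 arrays, empirical Bayes with intensity trend, two-sided, Benjamini-Hochberg over 45037 probe sets, after 64 controls were left out). Degrees of freedom were 3 residual and 7.21 prior. The smallest p that exact permutation of 2 against 2 allows is 0.333. Background is the 90th percentile of 27 unspiked bacterial control probe sets, 22.6 in linear units. Arrays have no read depth, and their number limits the precision. Probe sets took gene names from the platform annotation, updated to RefSeq symbols (99.1% of identifiers matched): 34945 had 1 symbol, 932 several and 9160 none.

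All probe sets of the 8 genes are described. Of the other pathway genes, those past the threshold were named, up to 6, and up to 2 per group as values. The 3 genes most like a called member were taken by Pearson r. The members and lists were chosen with earlier results of these data known, and the immediate early list, the code A term and the count of pathway genes under other settings were added after seeing the data. The fit was tested on simulated data. Figures used matplotlib 3.10.9.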

Additional observations from a re-analysis of the deposited data

How the results depend on the processing

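Every difference was recomputed under 19 settings, 6 of which left out an array, and the Hes1 code A term with each array left out. Of the 1221 values of single probe sets, 1196 kept their direction and their side of the threshold or changed sign without passing it (55 sign changes, in 27 pairs of probe set and comparison), 10 lost a call, 15 gained one and 0 called ones reversed. All 10 losses were of Notch1. Gains were in Notch1, Hes1 and Notch3 probe set 1421964_at, the last at -0.95 for CD34+Flt3hi minus CD34-Flt3- cells with the fixed block on title code (limma adjusted p = 0.0349) and without CD34-Flt3- replicate 1 (0.0364). Over all settings Notch1 probe set 1418634_at stayed between 2.35 and 2.83 for CD34+Flt3hi minus CD34+Flt3- and between 1.78 and 2.16 for CD34+Flt3hi minus CD34-Flt3- cells.

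The title codes were not taken as pairing the arrays, since the deviations of the code A arrays correlated at 0.08, 0.27 and 0.1. With the code as a fixed replicate block, which fits CD34-Flt3- replicate 1 exactly, calls for CD34+Flt3hi minus CD34+Flt3- were 733 against 133, for CD34+Flt3- minus CD34-Flt3- 2311 against 401, and for CD34+Flt3hi minus CD34-Flt3- 3999 against 1580, and the Notch probe sets called were 2 against 1, 1 against 0 and 4 against 2, with 2 against 0 for the difference of the steps. With code A against the other codes as a replicate block, added later, these counts were 309, 1233 and 2544, with 1 Notch probe set for CD34+Flt3- minus CD34-Flt3- and 1 for the steps. The code as a random block had a correlation of 0.101 and moved no count by over 1.5 times.

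Without the intensity trend the counts of all probe sets were 82 for CD34+Flt3hi minus CD34+Flt3- and 204 for CD34+Flt3- minus CD34-Flt3-. With only the 4 arrays compared they were 300 and 47, and Notch probe sets in CD34+Flt3hi minus CD34-Flt3- were 1, as with the brightest probe set per gene. At an adjusted p under 0.10 calls were 885 for CD34+Flt3- minus CD34-Flt3- and 2400 for CD34+Flt3hi minus CD34-Flt3-, with 1 Notch probe set for the steps. Normalizing by quantiles again split the calls of CD34+Flt3- minus CD34-Flt3- 318 higher to 249 lower, against 173 to 228.

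Leaving out 1 array gave 25 to 301 calls for CD34+Flt3hi minus CD34+Flt3- (0 to 1 of the Notch probe sets), 0 to 1275 for CD34+Flt3- minus CD34-Flt3- (0 to 1), 257 to 3213 for CD34+Flt3hi minus CD34-Flt3- (0 to 4), 0 to 1 for the steps, and 0 to 8 pathway genes lower. The 0 came without CD34+Flt3- replicate 2, with 3243 probe sets at an unadjusted p under 0.05 in limma. A group left with 1 array was assumed to vary like the others. With 2 arrays a group, the calls rest on single arrays throughout, probe sets near background give no order, and the causes were not tested.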
